A study of Caenorhabditis elegans with 20 samples.

Results

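RNA recovered with the AIN-1 protein was compared directly with RNA recovered with AIN-2::GFP in mixed stage Caenorhabditis elegans, using 3 AIN-1 immunoprecipitates (IPs) and 3 AIN-2::GFP IPs, 6 of the 20 samples of the study. The samples of each IP were taken by their labels, and the signal of one IP was set against the other with no total RNA in the ratio. The AIN-1 IP was made with an AIN-1 antibody from wild-type N2 worms. The AIN-2::GFP IP was made with a GFP antibody from worms of single copy integrated line A, which is 1 line and carries AIN-2::GFP. Strain and antibody therefore differ together with the protein, and the contributions of the protein, the strain and the antibody to a difference cannot be told apart. Control IPs came from N2 with preimmune serum (3 samples) and from an injection line in which the ain-2 promoter drives GFP (3 samples, GFP antibody). Total lysate RNA came from N2 (2 samples), the AIN-2::GFP line (3 samples) and the promoter GFP line (3 samples). Per the series text, the IP samples are independent biological replicates.

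AIN-1 and AIN-2 are the worm members of the GW182 family. Such proteins bind the microRNA Argonautes and bring in the factors that shorten poly(A) tails and repress translation, so an mRNA recovered with them may be one that microRNAs hold. AIN-1 and AIN-2 act partly redundantly, and animals lacking 1 of them live. In the developing skin the let-7 and lin-4 family microRNAs time larval fates through heterochronic genes such as hbl-1.

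Each value below is a spot's brightness as a multiple of the mean of its array, after quantile normalization, and is given in "sample means". A log2 difference is AIN-1 IP minus AIN-2::GFP IP, so a positive one means more signal in the AIN-1 IP. Throughout, ± gives its standard error in the model with all 20 samples, also where the adjusted p beside it comes from another model. Mean brightness was 907, 629 and 808 scanner units on the AIN-1 IP arrays and 729, 329 and 612 on the AIN-2::GFP IP arrays, against 9 to 47 in the preimmune IPs and 370, 46 and 12 in the GFP IPs. The control IPs were also the least repeatable. The median SD of a feature across replicates was 0.35 log2 in the AIN-1 IP and 0.48 in the AIN-2::GFP IP, against 1.45 in the preimmune IP, 1.01 in the GFP IP and 0.22 to 0.32 in the total RNA groups. How precise a value is depends on the number of arrays, 3 per IP. A feature was taken as above background in a sample when it exceeded a limit set from 1278 chemoreceptor features. In all 3 AIN-1 IP samples 7798 tested features did so, in all 3 AIN-2::GFP IP samples 6940, and in all 6 samples 6416. Another 114 features were above the limit in all AIN-1 IP samples and in no AIN-2::GFP IP sample, and 94 the other way round.

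Each tissue except sperm had at least 1 defining marker above the limit on all 6 IP arrays. The muscle genes myo-3, unc-54 and unc-15, the neuronal genes unc-119 and snb-1, the intestinal yolk gene vit-6, the hypodermal collagen dpy-7 and the germline genes glh-1, pgl-1 and rme-2 were above the limit on all 6 IP arrays. The intestinal factor elt-2 was above it on 1 of the 6 arrays and the sperm phosphatase gene gsp-3 on 0, while spe-9 and ric-4 were on 4 and ges-1 and rol-6 on 5. The hypodermal collagen gene col-19 was above it on 3 arrays, all of them AIN-2::GFP IP arrays. The neuronal marker unc-64 and the sperm marker msp-3 had no feature in the probe table. In bulk samples such as these, fewer cells of a type and less RNA per cell cannot be told apart.

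Few features passed the test between the 2 IPs as it was fixed. Of 12222 features tested (11812 genes), 51% differed by less than 0.5 log2 and 22.1% by more than 1, with a median difference of 0.02. With all 20 samples in the model, as fixed for this comparison, 1 feature passed an adjusted p of 0.05 (0.00818% of those tested), the gene F42A10.7. At an unadjusted p under 0.05, 424 features (3.47%) were higher in the AIN-1 IP and 433 (3.54%) lower. The median standard error in that model was 0.748, so the 95% interval of a typical feature reached 1.59 log2 to either side. The model takes its spread from all groups, the noisy control IPs included.

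A second model left the 6 control IP arrays out of the fit and kept the other 14 samples. It was added after the data were seen, and it is called the 14-sample model here. The estimates are the same, but the median standard error was 0.370, which rests in part on the tight total RNA arrays. It called 447 features higher in the AIN-1 IP (3.66%) and 414 lower (3.39%). A model of the 6 IP arrays alone called 0 features by limma (1256 higher and 1024 lower at an unadjusted p under 0.05), so the calls below depend on a spread estimated with the total RNA arrays. The values of the groups did not overlap for 1670 features that were higher (13.7%) and 1420 that were lower (11.6%). Scaling each array by its mean alone moved the median of all features to -0.29, and the 14-sample model then called 214 higher and 1105 lower. Without AIN-1 IP replicate 2 it called 255 in all, without AIN-2::GFP IP replicate 2 it called 352, without AIN-1 IP replicate 3 or AIN-2::GFP IP replicate 3 it called 452 and 486, and without AIN-2::GFP IP replicate 1 it called 1509. In all 6 such fits 94 features stayed higher and 103 stayed lower.

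One AIN-2::GFP IP array stood apart from the other AIN-2::GFP IP arrays. Across features its replicate 1 had a rank correlation of 0.873 to 0.891 with the AIN-1 IP samples, but of 0.855 with its own replicates 2 and 3, whose correlations with the AIN-1 IP samples were 0.81 to 0.842. These correlations are across features of arrays with shared probes and are given as a description. An earlier analysis of these data had placed that array, all AIN-1 and preimmune IP arrays and GFP IP replicate 1 in a set of their own, which the labels do not name. With this array set as a further term, the 14-sample model called 72 features higher (0.589%) and 112 lower (0.916%). Of these, 39 higher and 54 lower features were called with the same sign without it.

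The small GTPase gene cdc-42, which acts in cell polarity, shows how far that 1 array can move a value. It read 16.7, 12.4 and 15.9 sample means in the AIN-1 IP, and 13.4 in AIN-2::GFP IP replicate 1 but the floor value of 0.0187 in replicates 2 and 3. The AIN-1 IP thus differed by 0.15 log2 from replicate 1 alone and by 9.63 from the floor at which replicates 2 and 3 lay, so the size depends on the floor. The difference of 6.47 ± 2.25 did not pass either model (adjusted p = 0.481, and 0.0689 in the 14-sample model). All 5 total RNA samples of both strains were at the floor as well.

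**Figure D1:**
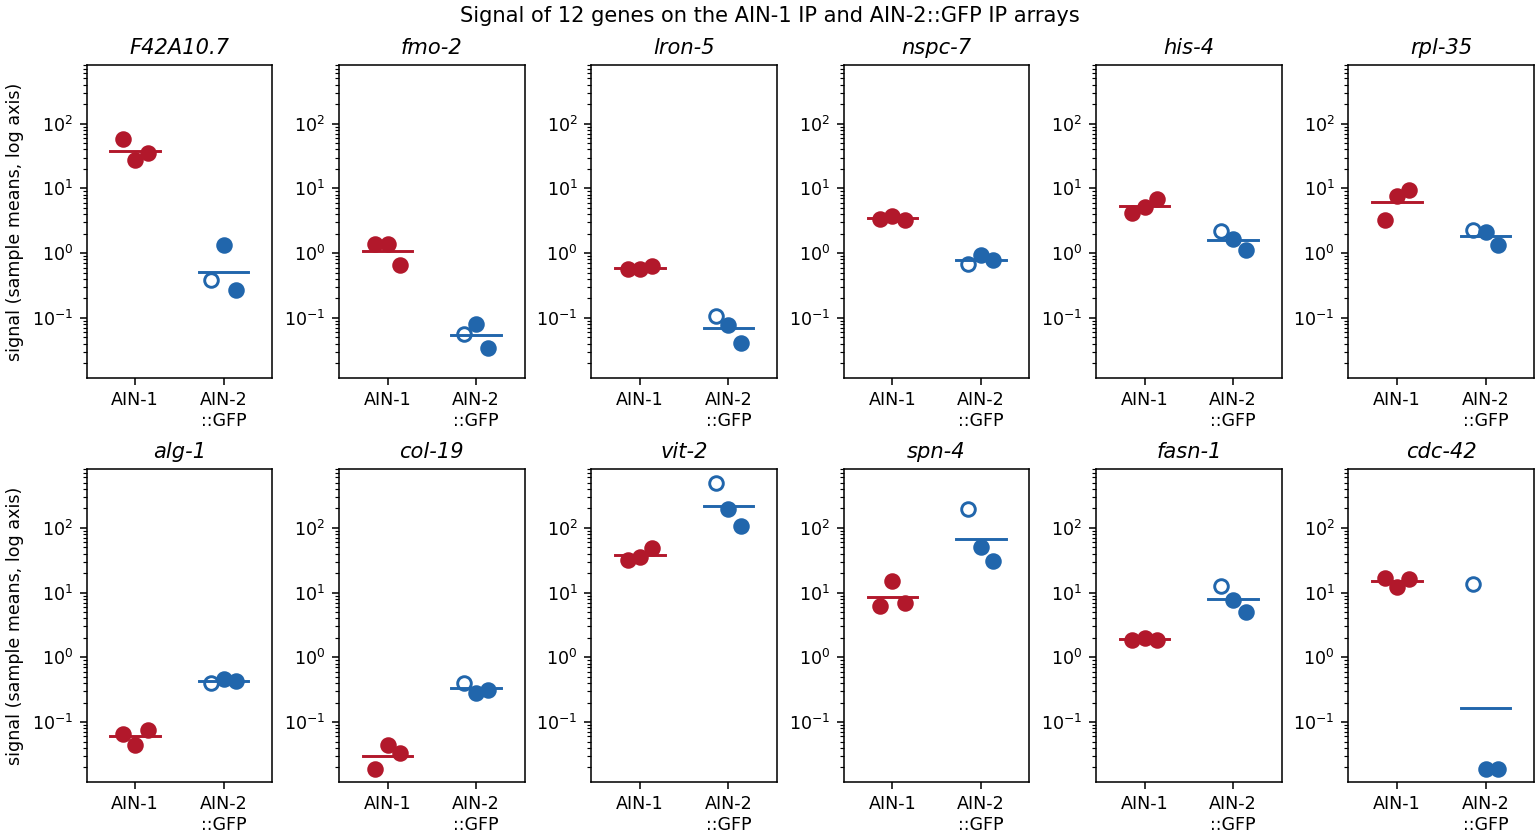
Signal of 12 genes in multiples of the array mean (log axis), with the 3 AIN-1 IP arrays on the left of each panel and the 3 AIN-2::GFP IP arrays on the right; bars are geometric means and the open circle is AIN-2::GFP IP replicate 1. F42A10.7 lies between 27.5 and 57.5 in the AIN-1 IP and at or below 1.32 in the AIN-2::GFP IP, alg-1 below 0.08 and above 0.4, and for cdc-42 only replicate 1 of the AIN-2::GFP IP is bright.

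The one gene past the test in both models was F42A10.7, a protein-coding gene of chromosome III in RefSeq (WBcel235) without an assigned name. Its signal was 57.5, 27.5 and 35.7 sample means in the AIN-1 IP, against 0.385, 1.32 and 0.270 in the AIN-2::GFP IP. The lowest AIN-1 IP value was far above the highest AIN-2::GFP IP value. The difference was 6.22 ± 0.555 log2, a 74.5-fold difference (limma, adjusted p = 9.52e-05, n = 3 and 3). Leaving out any 1 of the 6 IP arrays kept the call. It was named after its values were seen. The strains differed in the same way before any IP, since total RNA held 8.60 and 7.86 sample means in N2 and 0.146, 0.256 and 0.141 in the AIN-2::GFP line (5.53 log2, adjusted p = 0.00111). The control IPs differed by 3.97, and over them the difference fell to 2.25 (adjusted p = 0.357). Once each IP was set over the total RNA of its strain, 0.69 log2 was left (14-sample model, adjusted p = 0.615). That test over total RNA called 300 features higher (2.45%) and 301 lower (2.46%) in the 14-sample model.

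The next gene on that chromosome, F42A10.6, pointed the same way at a much lower level. It read 0.234, 0.124 and 0.257 sample means in the AIN-1 IP, and 0.0462, 0.0187 and 0.0532 in the AIN-2::GFP IP, where no sample was above the limit. That makes it at least 2.23-fold higher (14-sample model, adjusted p = 0.00673), where "at least" sets the brighter group against the background limit of the dimmer one. Its total RNA was higher in N2 by 3.18 log2. With the array set as a term the call was lost (adjusted p = 0.0926). Of the other neighbours within 5 genes that were tested, F42A10.5 differed by 0.93, abcf-3 by 0.27 and ugt-66 by 0.86, and none passed the test.

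In total RNA 17 features were higher in N2 (0.139%) and 8 lower (0.0655%) in the 20-sample model. Between the control IPs 0.974% were higher in the preimmune IP than in the GFP IP and 2.24% lower. The 14-sample model called 462 higher (3.78%) and 606 lower (4.96%) in N2 total RNA. Several further genes differed between the IPs as their strains did. Of these, fmo-2 and C17F4.7 were named after their values were seen. The flavin-containing monooxygenase gene fmo-2, which oxidises foreign compounds, had 1.4, 1.38 and 0.647 sample means in the AIN-1 IP, against 0.0561, 0.0806 and 0.0350 in the AIN-2::GFP IP, none of which was above the limit. It was at least 12.3-fold higher (14-sample model, adjusted p = 4.00e-04). Its total RNA read 1.43 and 1.36 in N2 and 0.0513, 0.0408 and 0.0355 in the AIN-2::GFP line, none of which was above the limit, so it was at least 19.5-fold higher in N2 (14-sample model, adjusted p = 2.39e-04). The uncharacterised gene C17F4.7 went the other way, with 0.235, 0.441 and 0.548 in the AIN-1 IP and 3.26, 6.55 and 4.45 in the AIN-2::GFP IP. Its IP difference was -3.57 ± 0.812 (14-sample model, adjusted p = 5.62e-04) and its difference in total RNA -4.91. The lysozyme gene lys-5 had an IP difference of 3.00 and a total RNA difference of 2.99, but only 1 of the 3 AIN-2::GFP IP samples was above the limit. That lys-5 call (14-sample model, adjusted p = 0.0221) was lost without any AIN-1 IP array or without AIN-2::GFP IP replicate 3, with an adjusted p of up to 0.0641. A second feature of lys-5 differed by 2.30 (14-sample model, adjusted p = 0.00997). It was at the floor in every AIN-2::GFP IP sample, so its size is uncertain.

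The features called with and without the array set were then set beside total RNA. Of the 39 that were higher in the AIN-1 IP, 26 had a total RNA difference of the same sign, 12 were also called higher in N2 total RNA in the 14-sample model and 2 were called lower there. Their median difference was 2.09 in the IPs and 0.52 in total RNA. Of the 54 that were lower, 33 had the same sign in total RNA, 11 were also called lower in N2 total RNA and 2 were called higher, with medians of -1.81 in the IPs and -0.30 in total RNA. Over all features the total RNA median was -0.14, so a negative sign is the more common one there. Of all features 3.78% were called higher and 4.96% lower in N2 total RNA in the 14-sample model. Low signal touches both sets, because 19 of the 39 were above the limit in no AIN-2::GFP IP sample and 20 of the 54 in no AIN-1 IP sample.

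**Figure D2:**
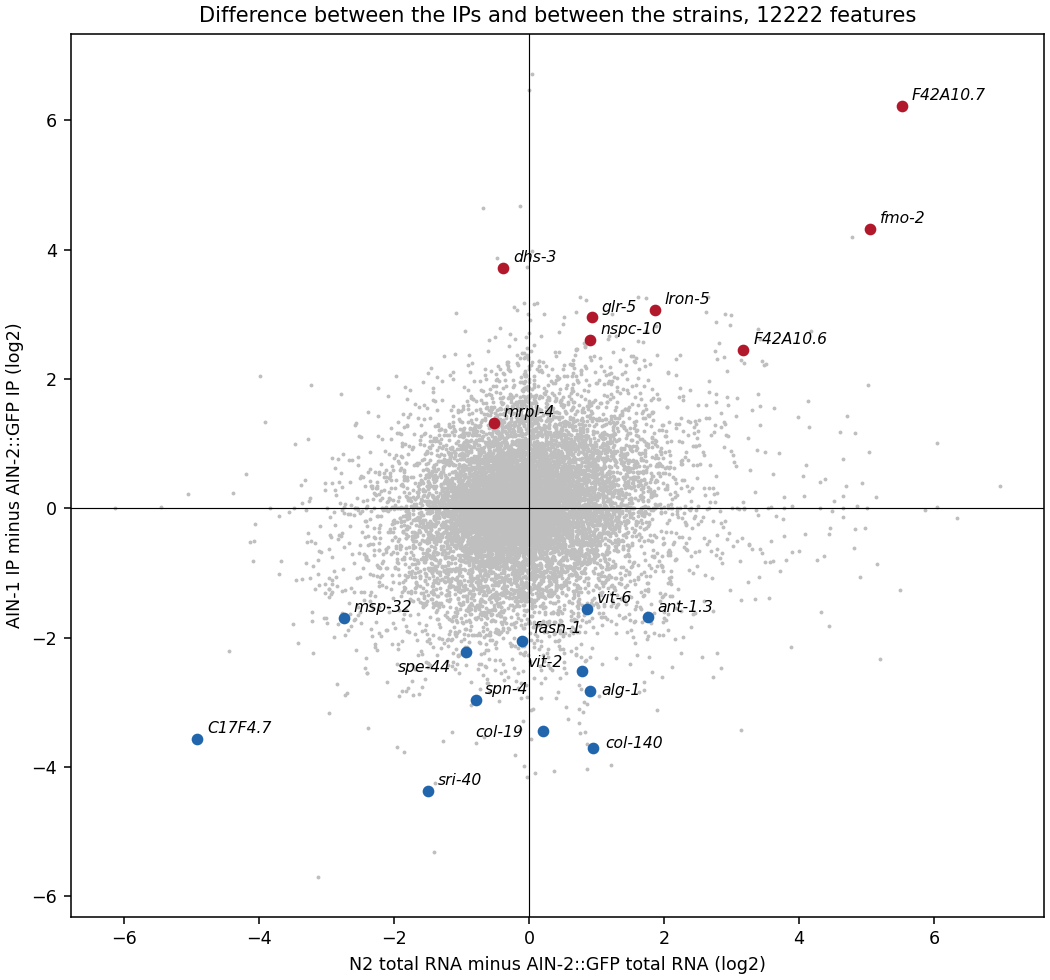
Difference between the IPs (vertical, AIN-1 IP minus AIN-2::GFP IP, log2) against the difference between the strains' total RNA (horizontal, N2 minus AIN-2::GFP line, log2) for 12222 features in grey, with 8 named genes that are higher in the AIN-1 IP in red and 12 that are lower in blue. F42A10.7, fmo-2 and C17F4.7 are far from 0 on both axes (fmo-2 with no AIN-2::GFP sample above the limit), whereas dhs-3, col-19 and fasn-1 differ in the IPs at a total RNA difference of -0.38, 0.21 and -0.10.

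The microRNA machinery was next, since both proteins belong to it. Of 26 tested factors of the microRNA complex and of P-bodies (27 on the array), 0 were higher and 2 were lower (7.69%) in the AIN-1 IP in the 14-sample model, against 3.66% and 3.39% of all features. Their median was -0.20 (0.02 for all features), and 17 lay below 0. Relative to all features it was -0.22, and -0.12 with mean scaling. The list also holds rle-1, an E3 ligase gene of the insulin pathway, and mel-28, a nuclear envelope gene, neither of which is known as such a factor or passed the test. The gene alg-1 encodes 1 of the main microRNA Argonautes. Its mRNA read 0.0653, 0.0440 and 0.0756 sample means in the AIN-1 IP, against 0.403, 0.458 and 0.427 in the AIN-2::GFP IP. No AIN-1 IP sample was above the limit, and all AIN-2::GFP IP samples were. It was at least 5.43-fold lower (14-sample model, adjusted p = 6.22e-04, and 0.00938 with the array set; 0.279 in the 20-sample model), and every fit that left out 1 IP array kept the call. Total RNA did not share that direction, with 0.187 and 0.204 in N2 and 0.110, 0.122 and 0.0812 in the AIN-2::GFP line.

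The other called factor was panl-2, a subunit of the PAN deadenylase that GW182 proteins bind. It had 0.118, 0.0662 and 0.127 in the AIN-1 IP and 0.311, 0.321 and 0.291 in the AIN-2::GFP IP, without overlap, and 2 of the 3 AIN-1 IP samples were above the limit. The difference was -1.63 ± 0.544 (14-sample model, adjusted p = 0.0101, but 0.108 with the array set). For the poly(A)-binding protein gene pab-1, a bright spot with 13.1, 14.1 and 13.7 in the AIN-1 IP and 25.8, 30.3 and 20 in the AIN-2::GFP IP, the difference of -0.87 missed the test (adjusted p = 0.0689). The mRNA of ain-1 itself read 3.74, 3.69 and 3.72 in the AIN-1 IP, against 2.21, 3.57 and 2.80 in the AIN-2::GFP IP. That difference of 0.41 ± 0.498 did not pass (14-sample model, adjusted p = 0.318). The second Argonaute gene alg-2 overlapped between the groups, with 1.52, 1.68 and 1.73 against 1.91, 1.53 and 1.80. A P-body RING protein gene of the same family of factors, nhl-2, was among the brightest, with 36, 30 and 28.1 in the AIN-1 IP and 26.7, 38.8 and 43.7 in the AIN-2::GFP IP, and it overlapped as well.

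Most described microRNA targets had a lower value in the AIN-1 IP, by a size that depended on the normalization. Relative to all features their median was -0.46, and -0.12 with mean scaling. The AIN-1 IP values lay wholly above those of the AIN-2::GFP IP in 4 targets (22.2%, against 13.7% of all features). They lay wholly below in 3 (16.7%, against 11.6%). Of 18 tested (21 on the array), 1 was higher and 1 lower in the 14-sample model (5.56% each, against 3.66% and 3.39% of all features), and the median was -0.44, with 14 below 0. The lower one was sec-24.1, a COPII coat gene, with 0.0593, 0.0187 and 0.0459 in the AIN-1 IP and 0.204, 0.117 and 0.221 in the AIN-2::GFP IP. It was at least 2.20-fold lower (14-sample model, adjusted p = 0.00807, but 0.0731 with the array set). The higher one was nol-6, a nucleolar protein gene above the limit in 1 AIN-1 IP sample and in no AIN-2::GFP IP sample, for which no fold is given (14-sample model, adjusted p = 0.0454). The skin timing factor hbl-1 read 3.25, 3.51 and 2.40 in the AIN-1 IP, and 8.58, 4.7 and 3.15 in the AIN-2::GFP IP. Those values overlapped, and -0.74 ± 0.455 did not pass (14-sample model, adjusted p = 0.220). The Ras gene let-60, a let-7 target, had 8.79, 9.08 and 6.73 in the AIN-1 IP and 11.06, 9.87 and 12.4 in the AIN-2::GFP IP. No overlap was seen there, yet -0.44 ± 0.342 missed the test (14-sample model, adjusted p = 0.183). The cell cycle inhibitor gene cki-1 had the opposite sign at 0.76 ± 0.857 (14-sample model, adjusted p = 0.0718), and the zinc finger gene die-1 differed by -0.70 ± 0.464 (adjusted p = 0.192).

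**Figure D3:**
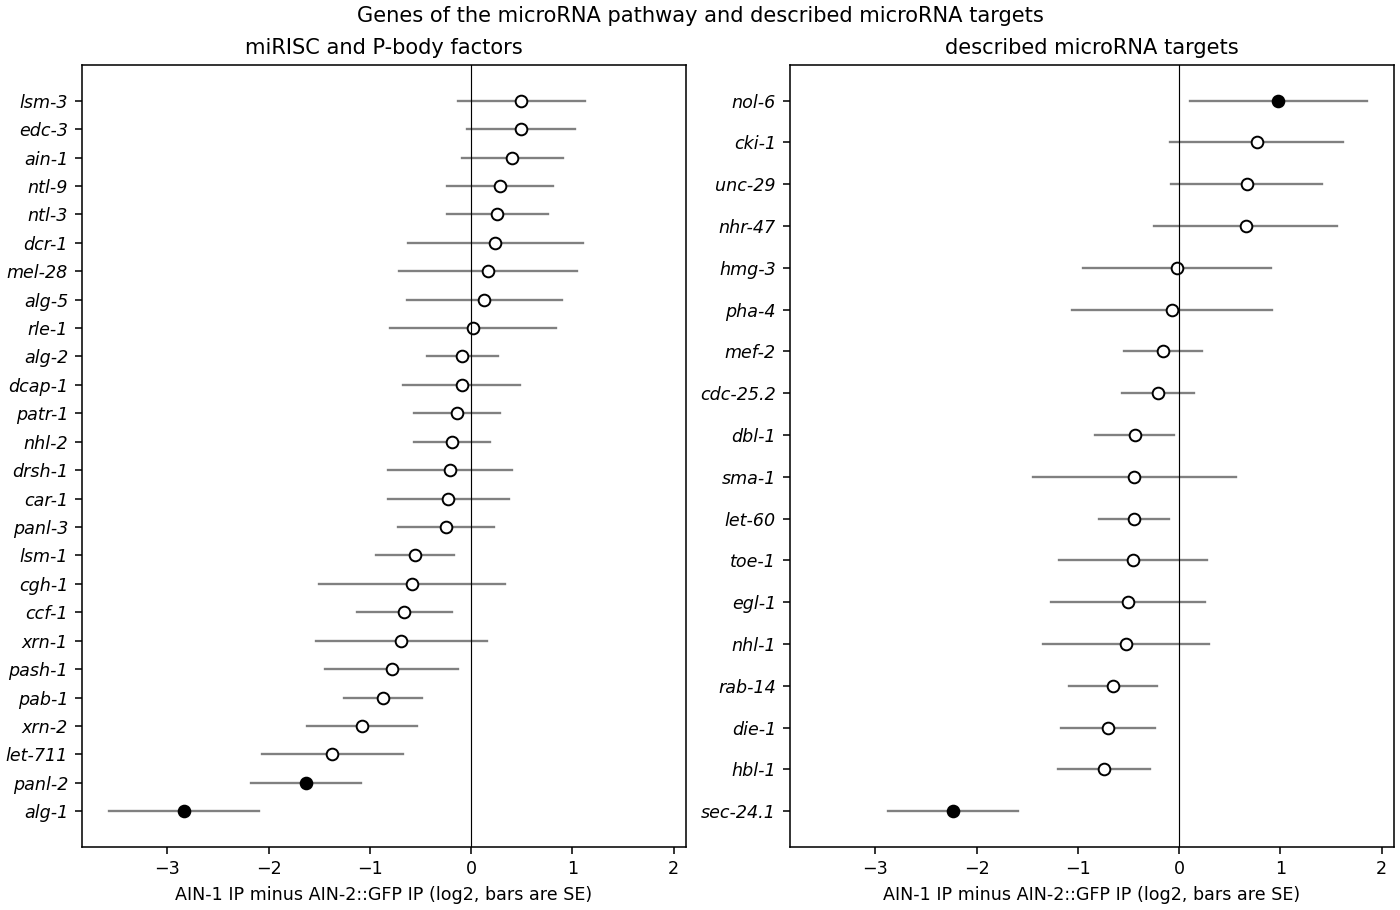
Log2 difference between the IPs (AIN-1 IP minus AIN-2::GFP IP) for 26 microRNA complex and P-body genes on the left and 18 described microRNA targets on the right; bars are ± the standard error in the 20-sample model and filled circles passed the 14-sample model. Filled circles lie at -2.83 for alg-1, -1.63 for panl-2, -2.23 for sec-24.1 and 0.98 for nol-6, of which alg-1, sec-24.1 and nol-6 have an IP with no sample above the background limit, so their plotted size is uncertain.

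Yolk protein mRNAs, which the adult hermaphrodite intestine makes for the oocytes, were lower in the AIN-1 IP as far as they were called. Of 6 tested genes 2 were lower (33.3%, against 3.39% of all features) and 0 higher in the 14-sample model, and the median was -1.20. The yolk gene vit-2 had 31.6, 35.1 and 49.4 sample means in the AIN-1 IP, against 497, 192 and 106 in the AIN-2::GFP IP. The normalization stretches the brightest spots, for in the deposited values the same gene read 34.5, 39.7 and 45.5 in the AIN-1 IP and 72.6, 106 and 84.6 in the AIN-2::GFP IP. The groups did not overlap on either scale. The difference was -2.51 ± 0.525 (14-sample model, adjusted p = 0.0175) and -1.13 with mean scaling (adjusted p = 0.0242), and leaving out AIN-1 IP replicate 2 ended the call (0.0767).

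In vit-6 the values were 12.2, 15.4 and 23.9 in the AIN-1 IP and 41.5, 51.8 and 52.7 in the AIN-2::GFP IP. That difference of -1.55 ± 0.455 (14-sample model, adjusted p = 0.0192) did not hold when AIN-1 IP replicate 1 or 2 or AIN-2::GFP IP replicate 3 was left out (up to 0.0868), nor with the array set (0.189). Total RNA had the opposite sign, higher in N2 by 0.79 for vit-2 and 0.86 for vit-6, and over total RNA the differences were -3.30 and -2.41 (14-sample model, adjusted p = 0.0374 and 0.0252). The brightest feature of vit-4 differed by -1.50 and missed the test (14-sample model, adjusted p = 0.0574), while its 2 other features were above the limit in at most 1 IP sample. The summed yolk signal was 281, 522 and 294 in the AIN-1 IP and 792, 1275 and 953 in the AIN-2::GFP IP. On the deposited scale the sums overlapped, at 220, 274 and 248 in the AIN-1 IP and 270, 584 and 429 in the AIN-2::GFP IP. Relative to all genes the yolk median with mean scaling was -0.33.

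Germline and oocyte mRNAs were also lower in the AIN-1 IP where they were called. Of 84 tested genes 5 were lower (5.95%, against 3.39% of all features) and 0 higher in the 14-sample model, with a median of -0.31. Their values did not overlap in 22 genes that were lower (26.2%, against 11.6% of all features) and 2 that were higher (2.38%, against 13.7%). The gene spn-4 encodes an RNA-binding protein that controls translation of maternal mRNAs in the early embryo. It read 6.15, 14.9 and 6.96 in the AIN-1 IP and 192, 50.4 and 31.2 in the AIN-2::GFP IP. The difference was -2.96 ± 0.704 (14-sample model, adjusted p = 0.0166, and 5.75e-04 with the array set). Leaving out AIN-1 IP replicate 3 ended the call (0.0536), and with mean scaling the difference was -2.31. In total RNA spn-4 differed by -0.79, and over total RNA the remaining -2.17 did not pass (14-sample model, adjusted p = 0.164).

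The eggshell gene cbd-1 had 1.56, 1.53 and 1.93 in the AIN-1 IP and 3.65, 4.66 and 5.30 in the AIN-2::GFP IP. Its -1.43 ± 0.427 (14-sample model, adjusted p = 0.0158) came with a total RNA difference of -1.19, and it no longer passed once AIN-1 IP replicate 2 was left out (0.0741) or the array set was added (0.198). The germline Notch receptor gene glp-1 was at the floor in all 3 AIN-1 IP samples, and read 0.0462, 0.122 and 0.218 in the AIN-2::GFP IP. At least 1.36-fold lower, it passed the 14-sample model (adjusted p = 0.0120) but not without AIN-1 IP replicate 2 (0.0565) or with the array set (0.157). The summed germline signal was 205, 228 and 219 in the AIN-1 IP and 505, 305 and 298 in the AIN-2::GFP IP, without overlap. In total RNA it was 247 and 268 in N2 and 297, 317 and 336 in the AIN-2::GFP line. The part of that tissue difference in the gene values was not tested.

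Major sperm protein genes, which encode the cytoskeletal protein that lets nematode sperm crawl, followed the strain at a smaller size. Of 15 tested 4 were lower (26.7%, against 3.39% of all features) and 0 higher in the 14-sample model. In 12 (80%) the AIN-1 IP values lay wholly below those of the AIN-2::GFP IP, against 11.6% of all features. The near-identical sequences of the family can share signal between spots, so single members are uncertain. The member msp-32 read 0.638, 0.644 and 0.618 in the AIN-1 IP and 1.74, 2.05 and 2.45 in the AIN-2::GFP IP. Its difference of -1.70 ± 0.644 (14-sample model, adjusted p = 0.0252) was lost with the array set (0.272) and without any 1 of the IP arrays other than AIN-2::GFP IP replicate 1 (up to 0.0860). The summed signal of the family was 8.26, 9.87 and 9.25 in the AIN-1 IP and 18.1, 21.4 and 27.4 in the AIN-2::GFP IP. In total RNA it was 10.69 and 8.31 in N2 and 47.9, 60.6 and 118 in the AIN-2::GFP line, a wider gap than in the IPs. The family's median was -1.25 in the IPs, -2.91 in total RNA and 1.71 over total RNA. Between the control IPs it was -4.84, with sums of 23.6, 7.83 and 14.2 in the preimmune IP and 91.7, 61.0 and 132 in the GFP IP. Over the control IPs msp-32, msp-78 and msp-76 turned to 2.54, 2.12 and 1.93, and none of them passed. The parts of strain and antibody were not tested.

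Other sperm genes had a median of -0.28, and 2 of 43 tested were lower in the 14-sample model (4.65%, against 3.39% of all features). One of them, the sperm-programme transcription factor gene spe-44, read 0.0187, 0.0187 and 0.0254 in the AIN-1 IP and 0.118, 0.117 and 0.0658 in the AIN-2::GFP IP. It was at least 1.23-fold lower (14-sample model, adjusted p = 0.00267, and 0.00650 with the array set), and each fit without 1 IP array kept the call.

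**Figure D4:**
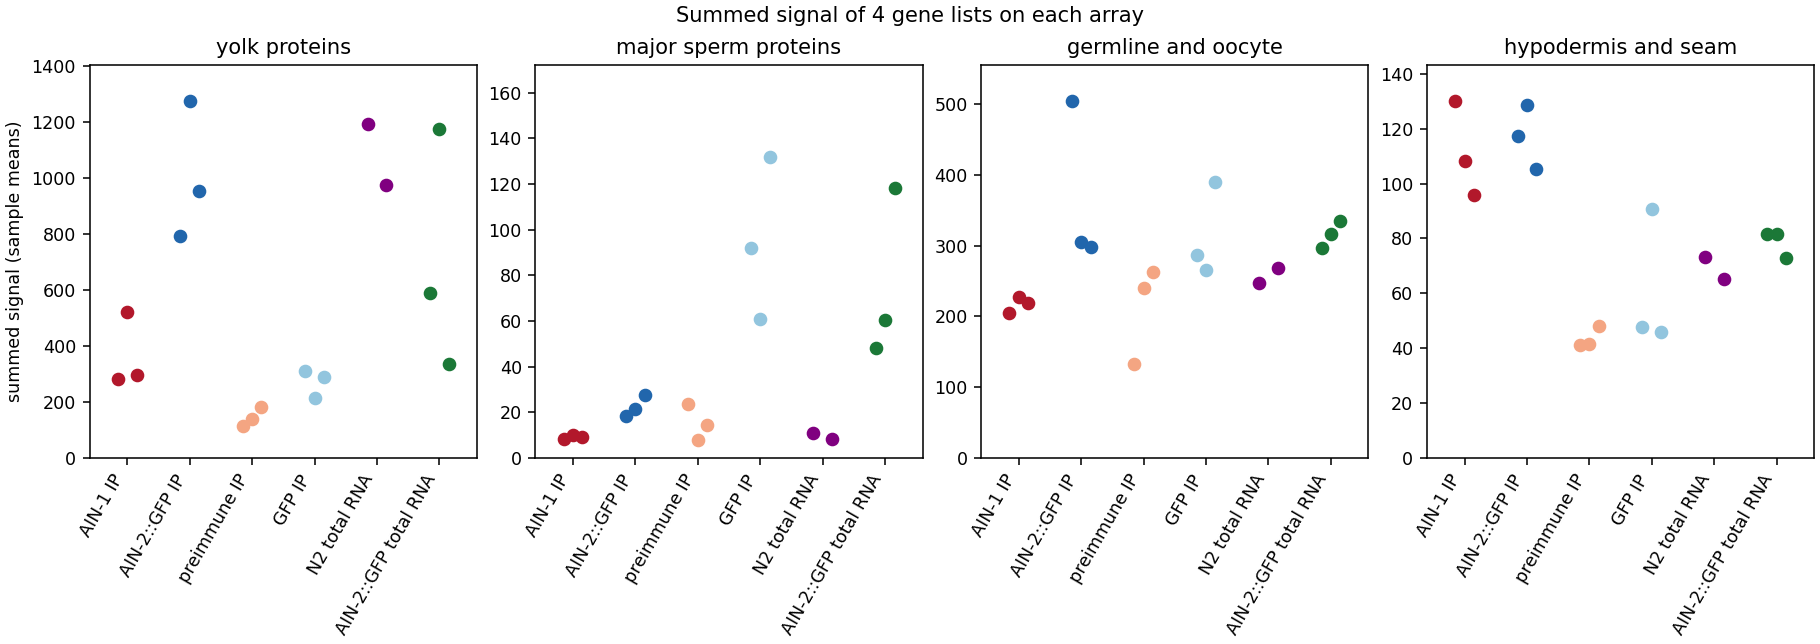
Summed normalized signal (multiples of the array mean) of the yolk, major sperm protein, germline and hypodermal lists on each array, 1 point per sample, with the AIN-1 IP left of the AIN-2::GFP IP, the preimmune IP left of the GFP IP and N2 total RNA left of AIN-2::GFP total RNA. For the AIN-1 IP the yolk sums are 281 to 522, and for the AIN-2::GFP IP 792 to 1275. The major sperm protein sums are 8.26 to 9.87 for the AIN-1 IP and 18.1 to 27.4 for the AIN-2::GFP IP.

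Several cuticle collagens were at background in the AIN-1 IP and above it in the AIN-2::GFP IP. Of 143 tested, 9 were lower (6.29%, against 3.39% of all features) and 1 was higher (0.699%, against 3.66%) in the 14-sample model. Their values did not overlap in 32 lower genes (22.4%, against 11.6% of all features) and 10 higher genes (6.99%, against 13.7%). The adult-stage collagen gene col-19 had 0.0187, 0.0440 and 0.0339 in the AIN-1 IP and 0.407, 0.286 and 0.313 in the AIN-2::GFP IP. No AIN-1 IP sample was above the limit, and every AIN-2::GFP IP sample was. It was at least 4.20-fold lower, with an adjusted p of 0.0554 in the 20-sample model, 0.00146 in the 14-sample model and 0.00498 with the array set. Its total RNA was level between the strains, with 0.775 and 1.04 in N2 and 0.657, 0.931 and 0.691 in the AIN-2::GFP line. The dim control IPs differed in the same direction as the AIN IPs. For col-19 they read 0.0187, 0.0187 and 0.0432 in the preimmune IP and 0.149, 0.184 and 0.0520 in the GFP IP. That is a log2 difference of -2.19 (20-sample model, adjusted p = 0.0450).

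The collagen gene col-140 had 0.0187, 0.0187 and 0.0426 in the AIN-1 IP and 0.287, 0.366 and 0.317 in the AIN-2::GFP IP, at least 4.08-fold lower (14-sample model, adjusted p = 0.00117). For col-20, at the floor in all AIN-1 IP samples, it was at least 2.36-fold (adjusted p = 0.00379). Both kept the call with the array set and in every fit without 1 IP array. The gene col-76, named after its values were seen, was above the limit on all 6 arrays, with 0.161, 0.121 and 0.110 in the AIN-1 IP and 0.448, 0.409 and 0.503 in the AIN-2::GFP IP. It fell by 1.81 on the log2 scale (14-sample model, adjusted p = 0.00394). The whole list moved less than these members: its median was -0.30 in the IPs, against 0.62 in total RNA and -0.71 over total RNA.

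Genes of energy and lipid metabolism were split. Of 44 tested respiratory chain and ATP synthase genes, 3 were higher (6.82%, against 3.66% of all features) and 0 lower in the 14-sample model, with a median of 0.02. The cytochrome c gene cyc-2.1 read 11.6, 5.63 and 11.2 in the AIN-1 IP and 3.12, 2.16 and 2.62 in the AIN-2::GFP IP. Its 1.79 ± 0.513 (14-sample model, adjusted p = 0.0390) held only without AIN-2::GFP IP replicate 1 among the fits that left out 1 IP array (otherwise up to 0.120), and not with the array set (0.316). The ATP synthase gene atp-1 differed by 0.87 (14-sample model, adjusted p = 0.0499), a call that no such fit kept (0.0514 to 0.181). Of 7 tested mitochondrial carrier and ATPase inhibitor genes, 3 were lower (42.9%, against 3.39% of all features) and 0 higher in the 14-sample model. The ATP/ADP carrier gene ant-1.4 had 0.662, 0.432 and 0.558 in the AIN-1 IP and 2.22, 3.14 and 1.4 in the AIN-2::GFP IP. Its difference was -1.98 ± 0.665 (14-sample model, adjusted p = 0.0122), although total RNA was higher in N2 by 1.76. It missed the test when replicate 2 of either IP was left out (up to 0.0566) and with the array set (0.0921). A second feature of the gene differed by -1.4. The related ant-1.3 read 1.22, 0.546 and 0.942 in the AIN-1 IP and 3.79, 2.39 and 2.33 in the AIN-2::GFP IP. Its -1.69 (14-sample model, adjusted p = 0.0318) held only without AIN-1 IP replicate 1 among the fits that left out 1 IP array (otherwise up to 0.130). Over total RNA the 2 carriers differed by -3.74 and -3.44 (14-sample model, adjusted p = 0.00832 and 0.0155). Over the control IPs ant-1.4 turned to 0.16, and the related spots of the 2 carriers may share signal. The third called gene, mai-1, was above the limit in no AIN-1 IP sample. It was at least 1.35-fold lower (14-sample model, adjusted p = 0.0394, but 0.224 with the array set).

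Fatty acid genes had no shared direction, with 3 of 75 higher (4%, against 3.66% of all features) and 5 lower (6.67%, against 3.39%). Their median was 0.03. Among them the fatty acid synthase gene fasn-1 was a bright case without overlap between the IPs. It read 1.83, 2.01 and 1.86 in the AIN-1 IP, against 12.5, 7.64 and 5.04 in the AIN-2::GFP IP, and 1.57 to 1.87 in the total RNA of both strains. The AIN-1 IP value was thus close to that of total RNA and each AIN-2::GFP IP value above it. The difference of -2.05 ± 0.447 (14-sample model, adjusted p = 0.00539, and 7.62e-04 with the array set) held in each fit without 1 IP array, and it was -1.95 over total RNA (adjusted p = 0.0370). For fasn-1 the control IPs read 1.08, 1.60 and 0.959 in the preimmune IP and 5.03, 2.53 and 1.69 in the GFP IP. They differed in the same direction, by -1.23 log2 (limma, all samples in the fit, adjusted p = 0.150). The part of the antibody in the fasn-1 difference was not tested. The enoyl-CoA hydratase gene ech-9, of fatty acid oxidation, was at least 1.53-fold lower (14-sample model, adjusted p = 0.00974; 0.122 with the array set).

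Ribosomal protein mRNAs leaned the other way. Of 66 cytosolic ribosomal protein genes 3 were higher (4.55%, against 3.66% of all features) and 0 lower in the 14-sample model, 51 lay above 0 and the median was 0.33. In rpl-30 the signal was 3.37, 4.66 and 6.69 in the AIN-1 IP and 1.95, 1.80 and 1.97 in the AIN-2::GFP IP, against 18.2 to 22.1 in the total RNA of both strains. It was higher by 1.31 ± 0.460 (14-sample model, adjusted p = 0.0145), a call that ended when replicate 2 of either IP was left out (up to 0.0560) and with the array set (0.146). In both IPs rpl-30 stayed well below total RNA. The share of called genes in the list is near that of all features.

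Of 61 mitochondrial ribosomal protein genes, 6 were higher (9.84%, against 3.66% of all features) and 1 lower in the 14-sample model. The median was 0.28. The small subunit gene mrps-10 read 0.496, 0.558 and 0.623 in the AIN-1 IP and 0.271, 0.145 and 0.217 in the AIN-2::GFP IP, a difference of 1.45 ± 0.818 (14-sample model, adjusted p = 0.0102; 0.159 with the array set). Its total RNA pointed the other way at -0.57, and over total RNA it was higher by 2.02 (adjusted p = 0.0180). The large subunit gene mrpl-4 was at least 1.93-fold higher (14-sample model, adjusted p = 0.0187, and 0.0314 with the array set). Leaving out AIN-1 IP replicate 2 or 3 or AIN-2::GFP IP replicate 2 ended that call (up to 0.0815). With mean scaling the list's median was -0.20, still 0.09 above that of all genes.

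Core histone genes, whose mRNAs mostly lack poly(A) tails, gave 4 higher (16.7%) and 1 lower (4.17%) of 24 tested in the 14-sample model. The shares of all features were 3.66% and 3.39%, and the histone median was 0.41. The histone gene his-4 read 4.14, 5.26 and 6.89 in the AIN-1 IP, against 2.18, 1.66 and 1.12 in the AIN-2::GFP IP. It was higher by 1.74 ± 0.865 (14-sample model, adjusted p = 0.00925) and kept the call in each fit without 1 IP array, but not with the array set (0.146). Histone genes are near-identical copies, so signal can be shared between members.

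The following lists of channels and cell surface genes had medians above the 0.02 of all genes. They were 0.41 for ligand-gated ion channels, 0.21 for immunoglobulin, leucine-rich repeat and cadherin genes, 0.20 for DEG/ENaC channels and 0.06 for guanylyl cyclases. In the 14-sample model 3 immunoglobulin, leucine-rich repeat and cadherin genes were higher and 3 lower of 55 (5.45% each). Guanylyl cyclases gave 1 higher and 1 lower of 18 (5.56% each), and 0 of 15 DEG/ENaC channels passed. Of 61 ligand-gated ion channel genes 4 were higher (6.56%, against 3.66% of all features) and 1 lower in that model. The AIN-1 IP values lay wholly above in 19 (31.1%, against 13.7% of all features) and wholly below in 4 (6.56%, against 11.6%). Relative to all genes, the median was 0.31 with mean scaling. The glutamate receptor gene glr-5 read 0.202, 0.222 and 0.172 in the AIN-1 IP and 0.0474, 0.0187 and 0.0187 in the AIN-2::GFP IP. It was at least 2.26-fold higher, with an adjusted p of 0.0554 in the 20-sample model, 0.00379 in the 14-sample model and 0.0393 with the array set, and it was kept in each fit without 1 IP array. In the extracellular leucine-rich repeat gene lron-5 the values were 0.570, 0.561 and 0.631 in the AIN-1 IP and 0.107, 0.0777 and 0.0406 in the AIN-2::GFP IP. Total RNA was at the floor in the AIN-2::GFP line and 0.0598 and 0.0678 in N2. With 1 of the 3 AIN-2::GFP IP samples above the limit, that gene was higher by 3.07 ± 0.560 (14-sample model, adjusted p = 8.91e-04, and 0.00676 with the array set).

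Chemoreceptor genes, from which the background limit was set, gave 20 higher (4.14%, near the 3.66% of all features) and 8 lower (1.66%, against 3.39%) of 483 tested. The largest difference among them was a fall. The serpentine receptor gene sri-40 read 0.0883, 0.0694 and 0.132 in the AIN-1 IP and 1.69, 1.87 and 2.29 in the AIN-2::GFP IP, with 2 of the 3 AIN-1 IP samples above the limit, a 20.8-fold lower value (-4.38 ± 0.822; 14-sample model, adjusted p = 3.41e-04; 0.00327 with the array set). It was lower in N2 total RNA as well, by 1.49, and -2.89 was left over total RNA (adjusted p = 0.0173). The forkhead factor gene fkh-9 had 0.645, 0.325 and 0.317 in the AIN-1 IP, against 1.83, 1.54 and 2.36 in the AIN-2::GFP IP. Its -2.21 ± 0.547 (14-sample model, adjusted p = 0.00539) held in each fit without 1 IP array but not with the array set (0.0651).

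A few other genes, named after their values were seen, differed more in the IPs than in total RNA. The MADF domain gene madf-4 read 1.29, 1.46 and 1.26 in the AIN-1 IP and 0.304, 0.207 and 0.217 in the AIN-2::GFP IP. Its total RNA was 0.116 and 0.108 in N2 and 0.109, 0.119 and 0.124 in the AIN-2::GFP line. The difference was 2.48 ± 0.732 (14-sample model, adjusted p = 4.45e-04, and 0.00427 with the array set), and 2.50 over total RNA (adjusted p = 0.00551). The lipid droplet dehydrogenase gene dhs-3 had 1.08, 1.6 and 1.45 in the AIN-1 IP and 0.0187, 0.214 and 0.273 in the AIN-2::GFP IP, where replicate 1 was at the floor. The AIN-1 IP was higher by 6.18 log2 against that replicate alone and by 2.49 against replicates 2 and 3. For dhs-3 the call (3.72 ± 1.49; 14-sample model, adjusted p = 0.0212) ended when AIN-1 IP replicate 2 or 3 was left out (up to 0.0779). The endosomal GTPase gene rab-11.1 went the other way, with 3.03, 4.19 and 5.48 in the AIN-1 IP and 16, 12.6 and 9.21 in the AIN-2::GFP IP. Its difference was -1.58 ± 0.729 (14-sample model, adjusted p = 0.0113, and 0.0314 with the array set), with -0.94 in total RNA.

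Outside the germline, sperm and yolk lists given above, the tissue lists had medians between -0.03 and 0.26, against 0.02 for all genes. The medians were -0.01 for 38 muscle genes, 0.20 for 47 neuronal genes, 0.26 for 60 intestinal genes and -0.03 for 23 hypodermal and seam genes. In the 14-sample model 1 of the muscle genes was higher (2.63%) and 2 lower (5.26%), and 4 of the neuronal genes were higher (8.51%) and 2 lower (4.26%). For the intestinal genes 3 were higher (5%) and 4 lower (6.67%), and for the hypodermal genes 1 was higher (4.35%) and 2 lower (8.7%). The shares of all features were 3.66% higher and 3.39% lower. Summed hypodermal signal was 130, 108 and 95.8 in the AIN-1 IP and 118, 129 and 106 in the AIN-2::GFP IP, with overlap. Among 15 common reference genes 0 passed the test, which for so few genes is near the shares of all features. Their differences ran from -0.68 to 6.47, the highest being that of cdc-42.

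**Figure D5:**
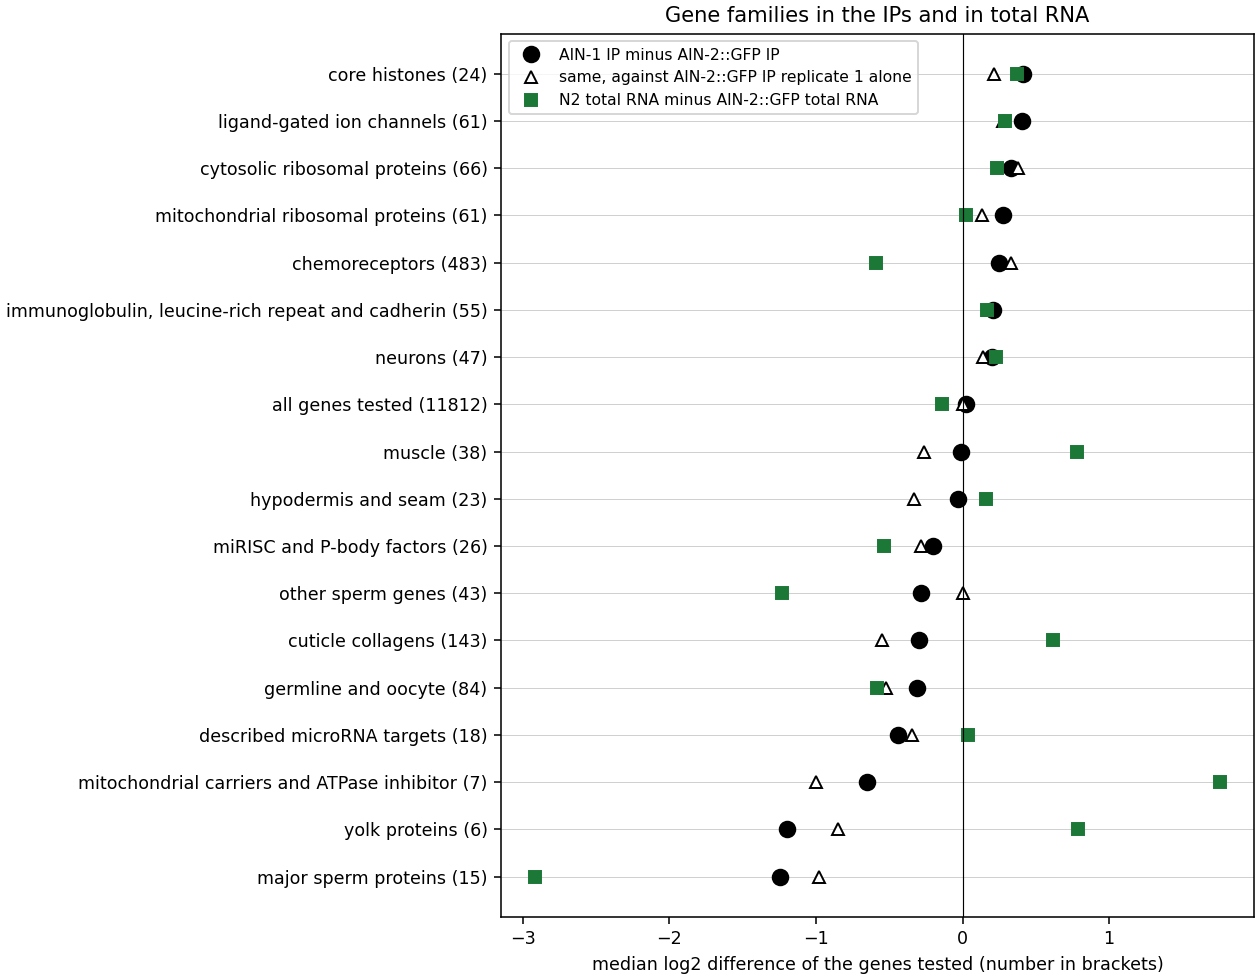
Median log2 difference of 17 gene lists and of all genes tested, with the number of genes in brackets; circles are AIN-1 IP minus AIN-2::GFP IP, open triangles the same against AIN-2::GFP IP replicate 1 alone, and squares N2 minus AIN-2::GFP total RNA. Major sperm proteins are at -1.25 in the IPs and -2.91 in total RNA, yolk proteins at -1.20 and 0.78, and the ribosomal list at 0.33 and 0.24.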

How the data were processed

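RNA of 20 samples in 7 groups was measured on spotted 2-colour arrays. The deposited intensity values are on a linear scale, background-subtracted and divided by the sample mean, as read from the values: 100% became whole numbers within 0.001 after multiplication by 1 constant per sample. Per the labels' protocols, RNA was amplified once and dyes were flipped. For scanner and image software the sources used here give nothing. The probe table gives 1 gene for 17461 features of the 23232, several for 0, and does not list 5771.

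Values were quantile normalized over all 20 samples. A floor of 0.0187 sample means, the 10th percentile of positive values, replaced the 32.9% of values under it, and features whose mean exceeded the 30th percentile were tested on the log2 scale. With limma 3.58.1 in R 4.3.3, 7 group means and the dye were fitted. Tests were two-sided with Benjamini-Hochberg adjustment over all 12222 features at 0.05. Adjusted p-values come from these limma fits. The background limit was the median plus 2 scaled MADs of the chemoreceptor features. "At least N-fold" divides the brighter group's mean by the mean, per array, of the limit or the dimmer spot's own value, whichever was higher. The replicates of both IPs share the same dye order, so the IP estimate is the same with and without the control IPs.

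The comparison, the gene lists and the array set were chosen with earlier results of these data known. Lists were written from gene names. Named genes are, by rule, up to 3 members of a list with the smallest adjusted p, and every microRNA factor and described target; the part of the rule that names called genes gave 0, because F42A10.7 has no symbol of letters, a hyphen and a number. Genes named otherwise are marked as named after their values were seen. Where a gene has several features, the brightest stands for it. Replicate numbers were not shown to pair the samples: the correlations of same-numbered deviations were -0.02, 0.10 and 0.02. Figures were drawn with Python 3.11.15 and matplotlib 3.10.9. The fits were tested on simulated data.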

Additional observations from a re-analysis of the deposited data

Results flagged for a closer look

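The difference between the IPs over the total RNA of each strain passed the test for 1 feature, the uncharacterised gene F45D11.14, at -6.63 log2 (limma, adjusted p = 0.0445, n = 3, 2, 3 and 3). No sample of either IP was above the background limit, so the size is uncertain, and the difference comes from total RNA, which was higher in N2 by 6.97. Across the alternatives the value was -5.95 to -7.81. The call was lost with mean scaling (adjusted p = 0.189), with cyclic loess (0.204), with the replicate block (0.169), with the floor at the 1st percentile (0.438), with normalization of the compared groups only (0.0539), with robust eBayes (0.0745) and without any AIN-2::GFP IP array (0.0932, 0.157 and 0.104). It also ended on leaving out AIN-1 IP replicate 1 or 2 (0.0969 and 0.281), N2 total RNA replicate 2 (0.0759) and AIN-2::GFP total RNA replicate 1 or 3 (0.135 and 0.0786). Leaving the control IPs out of the fit kept it (adjusted p = 0.00832).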

How the results depend on the processing

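The count of 1 feature between the IPs became 6 with mean scaling, 2 with cyclic loess, 0 with quantile normalization of the compared groups only or with only their samples in the fit, 3 with the floor at the 1st percentile, 50 with it at the 25th, 20 without the filter, 3 with the filter at the 50th percentile, 3 without the dye, 33 (3 higher and 30 lower) with the array set and 13 over the control IPs. Leaving out 1 sample gave 1 to 4. The replicate block left it at 1 and F42A10.7 called, and changed no named gene's call. Percentile ranks of the ratio of each IP to total RNA, which compare the IPs over total RNA, gave 1399 with limma and 1441 with the methods' t-test (762 after Benjamini-Hochberg). With the control IPs left out (861) the count was 184 with the array set, 1319 with mean scaling, 1102 with cyclic loess, 925 with the replicate block, 745 with them out of the normalization too, 212 against AIN-2::GFP IP replicate 1 alone and 653, 255 and 452 on leaving out AIN-1 IP replicate 1, 2 or 3 and 1509, 352 and 486 on leaving out AIN-2::GFP IP replicate 1, 2 or 3. F42A10.7 was lost over the control IPs, with only the compared groups in the fit (adjusted p = 0.105) or in the normalization (0.0892). Between the total RNAs the count of 25 became 3 with mean scaling or loess, 2 with normalization of the compared groups or the floor at the 1st percentile, 129 with it at the 25th, 111 without the filter, 16 with the 50th percentile filter, 0 with only those samples, 1068 without control IPs and 3 to 50 without 1 sample. Between the control IPs 393 became 596 with mean scaling, 617 without the filter, 0 with normalization or fit of the compared groups only, 183 with the array set and 326 to 1200 without 1 sample. The count of 1 over total RNA became 0 with mean scaling, the floor at the 1st percentile, the 50th percentile filter, the replicate block or robust eBayes, 155 with normalization of the compared groups, 60 with the floor at the 25th percentile, 31 without the filter, 327 with only those samples, 19 with the array set, 601 without control IPs and 0 to 38 without 1 sample. Signs turned over the control IPs for alg-2 (0.066), die-1 (0.10), msp-32 (2.54), msp-78 (2.12), msp-76 (1.93), ant-1.4 (0.16), C17F4.7 (2.46) and fmo-2 (-0.39), and against AIN-2::GFP IP replicate 1 alone for cdc-42 (-0.12 in a fit that adjusts for the dye, where the unadjusted means differed by 0.15). Of 1229 values of 62 named genes under the 20 alternatives fixed at the start, 1197 kept direction and side of the threshold, 20 passed it newly, 3 lost it and 9 turned. The cause of the turned signs was not tested. Sides were judged against the fit with all samples, which called only F42A10.7. For the other named genes a kept side therefore means still not called, which does not test the calls made without the control IPs. Under 13 alternatives added later, all without the control IPs, 308 of 806 values kept direction and side. The other 498 passed the threshold newly, and 0 lost it or turned. Low signal limits the dim genes: a bound is given where an IP had no sample above the limit, and sizes with only some samples above it are uncertain.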

Other observations

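The nspc genes, a family of short nematode-specific peptides of group C, all lie on the X chromosome and were noticed after the values were seen, so no test of the family is given. Of 9 genes tested, 5 were higher in the AIN-1 IP in the 14-sample model (55.6%, against 3.66% of all features) and 0 lower. In 8 (88.9%, against 13.7% of all features) the AIN-1 IP values lay wholly above those of the AIN-2::GFP IP. The median was 1.94. The gene nspc-10 read 1.31, 1.42 and 1.42 sample means in the AIN-1 IP and 0.236, 0.214 and 0.231 in the AIN-2::GFP IP (2.60 ± 1.21; adjusted p = 3.41e-04; 0.00139 with the array set). In nspc-7 the values were 3.43, 3.75 and 3.22 in the AIN-1 IP and 0.681, 0.939 and 0.778 in the AIN-2::GFP IP (2.13; adjusted p = 0.00115). In nspc-9 they were 3.44, 2.58 and 3.56 in the AIN-1 IP and 0.737, 0.789 and 0.961 in the AIN-2::GFP IP (1.94; adjusted p = 0.00379). Total RNA of the family was higher in N2 too, with a median of 0.91, and related spots may share signal. The member nspc-20 was above the limit in 1 AIN-2::GFP IP sample and in no AIN-1 IP sample.

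Transthyretin-related genes, secreted proteins that are numerous in nematodes, gave 5 higher (11.6%) and 1 lower (2.33%) of 43 in the 14-sample model. The shares of all features were 3.66% and 3.39%. The median of this list was 0.29, and -0.02 relative to all genes with mean scaling. The member ttr-5, named after its values were seen, read 0.900, 1.23 and 1.22 in the AIN-1 IP and 0.25, 0.214 and 0.125 in the AIN-2::GFP IP (2.55 ± 1.18; adjusted p = 0.00117; 0.0146 with the array set). Of 26 insulin signalling genes 4 were higher (15.4%) and 1 lower (3.85%), with ins-22, an insulin-like peptide gene, at least 2.83-fold higher (adjusted p = 0.0227). That call was lost without replicate 2 or 3 of either IP (up to 0.0779) and with the array set (0.310).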
